A study of Homo sapiens with 12 samples.

Results

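The genes described are 38 that encode the folding machinery of the endoplasmic reticulum (ER) and the XBP1 response that sets its size, taken by symbol out of 62656 genes in the deposited count table, of which 38828 had at least 1 count. All 38 were found, each with 1 identifier, and 37 were tested. DERL3, a derlin of the disposal pathway, was left out by the filter on low counts, with 4, 4, 11 and 10 counts summed over the 3 libraries of each group. RNA was sequenced from 2 established lines of human colorectal cancer cells, HCT116 and LoVo. The 4 groups were HCT116 control, HCT116 with overexpression (OE) of the long non-coding RNA SLERT, LoVo control, and LoVo labelled as SLERT knockdown (KD), with 3 libraries in each. Column headings name an empty vector for the HCT116 control and short hairpin RNAs for both LoVo groups, so a comparison of the lines also compares vectors, and these cannot be told apart. The labels do not say whether a line was 1 clone or whether each library had its own culture, so the p-values take in the spread among these libraries only, and that spread may be technical.

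As background, secreted and membrane proteins enter the ER through the Sec61 channel, fold there with the help of chaperones, lectins and disulfide isomerases, and are pulled back and degraded when folding fails. The sensors IRE1 (gene ERN1), PERK (EIF2AK3) and ATF6 watch over this compartment. IRE1 splices the mRNA of XBP1, whose protein then drives many genes of folding, disposal and transport, while PERK slows protein synthesis and favours translation of ATF4. Secretory epithelia such as that of the colon depend on this response. Gene-level read counts show how much XBP1 RNA there is and not how much of it is spliced.

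Total counts per library were 14.46 to 17.23 M, and log2 levels of libraries of 1 group correlated at 0.989 to 0.991. SNORA5C, a snoRNA end of SLERT, had 16 counts over the HCT116 controls and 1926 over the OE libraries, but 37 over the LoVo controls and 37 over the libraries labelled KD. SNORA5A, the other end, had 0, 142, 12 and 10 counts. TBRG4, the host gene, rose with OE (log2 fold change 0.66, SE 0.058, edgeR adjusted p = 5.24e-08) and was not called with the KD label (0.07, SE 0.061, adjusted p = 0.413 by edgeR). A lower SLERT level was therefore not seen in the LoVo libraries, and those are called KD-labelled throughout. The 12 markers of colorectal epithelium had a summed FPKM of 1109.8 to 1186.5 in HCT116 and 1632.8 to 1938.7 in LoVo, where the KD-labelled libraries were the lower (1632.8 to 1722.9). In HCT116 the keratins KRT8, KRT18 and KRT19 made up most of the sum (means of 373.6, 185.0 and 471.1 FPKM in the controls). Only 7 of the 12 passed the filter on low counts there, and CDH17, LGALS4, VIL1, CDX1 and CEACAM5 had 30, 7, 4, 0 and 0 counts over the 3 controls. The 7 markers of plasma cells, a cell type rich in XBP1, summed to 17.4 to 29.6 FPKM, with 1 of them (SDC1, which epithelia also make) above a mean of 1 FPKM and IGKC at 0 counts. The extraction protocol speaks of retinas, and the 10 retina markers summed to 1.34 to 5.28 FPKM. Leukocyte markers summed to 1.57 to 2.84 and hepatocyte markers to 0.604 to 2.17 FPKM. The 10 markers of fibroblasts and endothelium summed to 7.92 to 9.7 FPKM in HCT116 and 0.511 to 2.4 in LoVo, with 1 above a mean of 1 FPKM.

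The members were first set beside a known property of their promoters, because the ER stress response element, the site where ATF6 and the factor NF-Y bind side by side, marks many genes of this response. The letters searched were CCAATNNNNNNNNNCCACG on both strands of the RefSeq promoter windows on GRCh38.p14, which run from 250 bases before to 50 after a gene start. Windows were found for 33 of the 38 genes. Exact matches were found in 8 of these 33 (24.2%), against 25 of all 27305 genes with a window (0.0916%). They are printed 5′ to 3′ along the strand of the match, with the fixed letters in capitals, because they show the element side by side in genes that rose, that fell and that were not called.
HSPA5 (chr9:125241391-125241409, - strand): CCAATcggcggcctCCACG
XBP1 (chr22:28800603-28800621, - strand): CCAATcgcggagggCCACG
HSP90B1 (chr12:103930216-103930234, + strand): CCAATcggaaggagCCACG
HSP90B1 (chr12:103930321-103930339, - strand): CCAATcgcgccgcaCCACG
CANX (chr5:179698778-179698796, + strand): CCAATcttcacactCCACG
CALR (chr19:12938384-12938402, - strand): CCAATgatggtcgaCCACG
CRELD2 (chr22:49918554-49918572, - strand): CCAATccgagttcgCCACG
PDIA6 (chr2:10812853-10812871, - strand): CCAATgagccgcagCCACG
ERO1B (chr1:236282183-236282201, + strand): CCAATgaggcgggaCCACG

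The 2 boxes are identical by construction, and the 9 bases between them differed in each of the 9 sites. Relative to the gene start, the first base of the site lay at -66 in HSPA5, -52 in XBP1, -194 and -89 in HSP90B1, -86 in PDIA6, -80 in CRELD2, -225 in CALR and -243 in ERO1B. CANX has several annotated starts, and its site lay at -189, -151 and -9 from 3 of them. A match is a description of letters and not evidence of binding. The second form of the element, searched as ATTGGNCCACG, which shares both boxes with the first, was found in 3 genes (9.09%, against 0.0696% of all), printed in the same way because HERPUD1 rose in LoVo while SDF2L1 and HYOU1 were not called there.
HERPUD1 (chr16:56932025-56932035, + strand): ATTGGgCCACG
SDF2L1 (chr22:21642114-21642124, - strand): ATTGGtCCACG
HYOU1 (chr11:119057274-119057284, + strand): ATTGGaCCACG
HYOU1 (chr11:119057380-119057390, + strand): ATTGGaCCACG

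HYOU1 also held the UPR element TGACGTGG, which overlaps 1 of its sites, and was the only member of 33 with it (3.03%, against 0.927% of all promoters). CREB3L2 was the only member with the cyclic AMP response element TGACGTCA (3.03%, against 2.25%). Among single boxes, CCAAT was in 27 of 33 promoters (81.8%, against 39.7%) and CCACG in 24 (72.7%, against 42.1%). The 250 bases before the starts of XBP1 and CALR are printed in the direction of the gene, with the element in capitals, because these genes carry the same element and moved in opposite directions in LoVo.
XBP1 (chr22:28800570-28800819, - strand): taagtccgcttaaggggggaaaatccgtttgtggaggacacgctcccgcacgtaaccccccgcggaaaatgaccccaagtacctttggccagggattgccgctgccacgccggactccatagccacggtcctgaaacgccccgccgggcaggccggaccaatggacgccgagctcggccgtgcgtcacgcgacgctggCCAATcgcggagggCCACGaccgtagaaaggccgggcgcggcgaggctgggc
CALR (chr19:12938359-12938608, + strand): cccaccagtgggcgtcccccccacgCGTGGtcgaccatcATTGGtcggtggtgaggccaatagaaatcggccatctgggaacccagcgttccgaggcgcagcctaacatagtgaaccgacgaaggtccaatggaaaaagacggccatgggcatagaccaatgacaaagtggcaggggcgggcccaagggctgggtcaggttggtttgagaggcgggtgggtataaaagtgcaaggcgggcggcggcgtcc

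**Figure D1:**
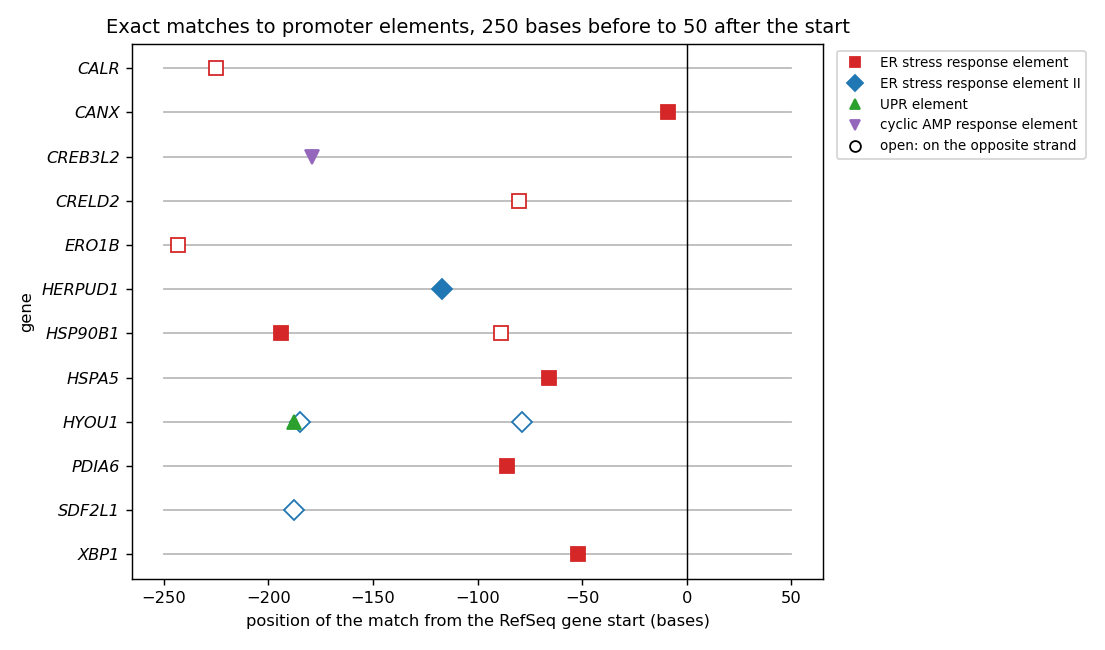
Position of each exact match (horizontal axis, bases from the RefSeq gene start) for the 12 members with a match, with open symbols for matches on the strand opposite to the gene and 1 annotated start drawn for each gene. The ER stress response element lies between -243 and -9 in the windows drawn, and HSP90B1 and HYOU1 hold 2 sites each.

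Levels between genes were compared per length, as deposited FPKM, and this length covers every annotated exon, so genes with long or many annotated exons read low. In the HCT116 controls CALR, the soluble lectin chaperone calreticulin, was highest at 262.5 FPKM, followed by HSPA5 (BiP, the main Hsp70 of the ER) at 152.7 and the disulfide isomerase PDIA4 at 118.9. The lowest of the tested genes were EIF2AK3 at 0.780 and the transcription factor CREB3L1 at 0.228. XBP1 stood 14th of 38 in the HCT116 controls (18.8 FPKM), 8th in the LoVo controls (38.4) and 5th in the KD-labelled libraries (51.9). A few chaperones carried most of the signal. HSPA5, P4HB, CANX, HSP90B1 and CALR held 58% of the members' counts in the HCT116 controls and 52.7% in the LoVo controls.

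The control libraries of the lines were compared to see how the same machinery is set at rest, and LoVo held more XBP1 but less of most chaperones than HCT116. Of 37 genes, 26 were lower and 8 higher in LoVo (edgeR adjusted p under 0.05). Over all genes tested 39.9% were lower, 39% higher and 79% called in all, and the members' share called was 91.9%, mostly in the lower direction. Their median log2 difference was -0.39, against 0.00 over all genes. The control groups did not overlap for 35 of the 37, a count that was not made over all genes. In bulk samples like these, fewer cells of a type and less RNA per cell cannot be told apart. All 26 lower calls held without any 1 library in turn, whereas 6 to 8 of the higher calls did, as HERPUD1, ERN1 and EDEM1 lost theirs in some of these fits.

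HSPA5 had 1012.9, 1028.4 and 1036.1 CPM (counts scaled to the library total, with TMM factors) in the HCT116 controls and 450.5, 457.3 and 474.9 in the LoVo controls. The groups were far apart and each was tight (log2 difference -1.15, SE 0.051, edgeR adjusted p = 5.63e-19). P4HB, the classical protein disulfide isomerase, had 901.5, 847.3 and 831.1 CPM against 441.6, 398.8 and 426.4 (-1.02). DERL1, a derlin of the retrotranslocation complex, and WFS1, the ER calcium protein wolframin, each differed by -1.09. The other Hsp70 and Hsp90 partners were lower too, apart from DNAJB9, which was not called (0.19, adjusted p = 0.153 by edgeR). Their differences ran from -0.24 for CRELD2 to -0.88 for SDF2L1.

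XBP1 (chr22:28794555-28800597, minus strand, GENCODE v29 on GRCh38) went the other way. It had 57.5, 59.4 and 59 CPM in the HCT116 controls and 109.6, 110.5 and 114.1 in the LoVo controls, with no overlap (0.93, SE 0.058, edgeR adjusted p = 2.89e-15). CREB3L1, a membrane-bound factor related to ATF6, was the largest difference of all members at 2.23, on low levels of 0.659, 1.15 and 1.02 against 5.5, 4.54 and 3.2 CPM. The Sec61 channel subunit SEC61A1 (0.41), the oxidase ERO1B (0.39), SSR2 of the translocon-associated complex (0.27), EDEM1 (0.21), ERN1 (0.18) and HERPUD1 (0.16) were the other genes higher in LoVo. EIF2AK3, the PERK gene, was lower (-0.91), so the genes of the sensors IRE1 and PERK differed between the lines in opposite directions. CANX, the membrane-bound lectin calnexin, was not called (0.03, 95% interval -0.07 to 0.13) and neither was DERL2 (0.12). The overlapping genes RUVBL1, beside SEC61A1, and GPR137B, beside ERO1B, lie on the opposite strand, and whether counting used strand is not given in the sources used here.

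**Figure D2:**
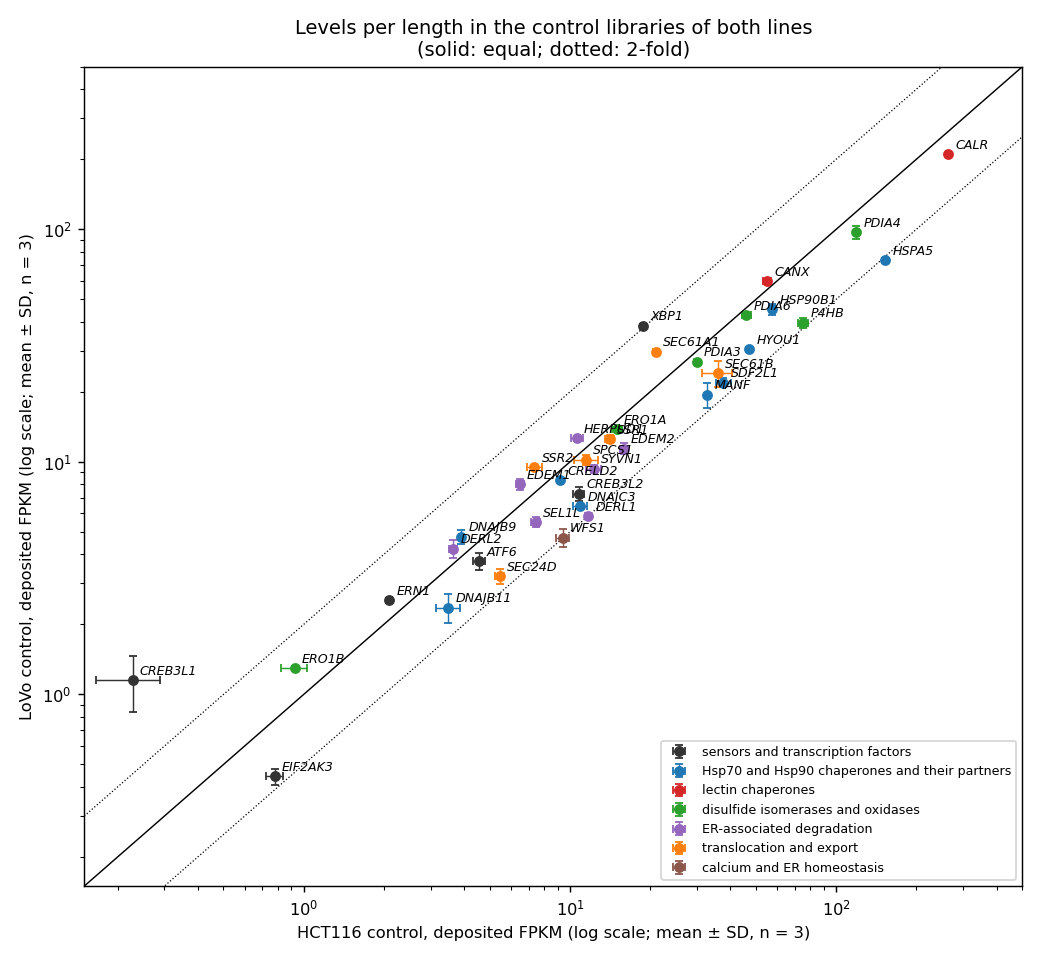
Deposited FPKM of the 37 tested genes in the control libraries of HCT116 (horizontal) and LoVo (vertical), both on log scales, as mean ± SD of 3 libraries and coloured by role; the solid line marks equal levels and the dotted lines a 2-fold difference. HSPA5 and P4HB lie at the lower dotted line, XBP1 at the upper one (18.8 and 38.4 FPKM) and CREB3L1 above it.

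With SLERT overexpression in HCT116 the machinery changed little, and 2 of 37 genes were called. CALR rose and EDEM1 (chr3:5187646-5219957, plus strand), a lectin that steers misfolded glycoproteins to degradation, fell. Over all genes tested, 0.914% were called, 0.507% higher and 0.407% lower, so this is 2 calls where the background share is under 1%. Log2 fold changes ran from -0.37 to 0.25 with a median of 0.08, against 0.00 for all genes, and 28 of 37 were above 0. The groups did not overlap for 15 of the 37, and how often this held over all genes was not counted.

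CALR had 775.7, 741.6 and 753.1 CPM in the controls and 891.2, 877.2 and 914.1 with OE. All 3 OE libraries lay above the controls (log2 fold change 0.25, SE 0.048, edgeR adjusted p = 0.00997). EDEM1 had 43.4, 45.2 and 46.2 CPM in the controls and 34.9, 36.3 and 32.6 with OE, again with no overlap (-0.37, SE 0.076, adjusted p = 0.0149 by edgeR). Both calls were lost without control library 2 (edgeR adjusted p = 0.0861 and 0.0642) and without OE library 3 (0.0769 and 0.114), and in limma on log2(FPKM + 1) (0.176 and 0.173). Without 1 library in turn, the calls over all genes also ranged from 37 to 287 in place of 146, with 37 to 43 without control 1, control 2, OE 2 or OE 3 and 287 without control 3.

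The Hsp70 and Hsp90 chaperones and their partners all had fold changes above 0 on the log2 scale in HCT116. By edgeR none of the 9 was called (4 at an unadjusted p under 0.05, and 0 called by DESeq2 or limma voom), and the 9 log2 fold changes lay between 0.08 and 0.25. With the replicate number as a block, edgeR did call HSPA5, SDF2L1, HYOU1 and CRELD2 (adjusted p from 0.00384 to 0.0345). Over the alternative fits the 9 fold changes ranged from 0.03 (DNAJB9 and DNAJC3) to 0.30 (SDF2L1), with none below 0. HSPA5 had 1123.0, 1116.9 and 1116.3 CPM with OE, above each control value given for it (0.13, 95% interval 0.04 to 0.23, edgeR adjusted p = 0.164). SDF2L1 (0.25), CRELD2 (0.19), DNAJB11 (0.16), HYOU1 and MANF (0.13 each) also had groups that did not overlap. Among sensors XBP1 was at 0.09 (interval -0.06 to 0.23) and none of 6 was called by edgeR (0 at an unadjusted p under 0.05, and 0 called by DESeq2 or voom). The members held 0.697% to 0.709% of all counts in the controls and 0.738% to 0.747% with OE. Without CALR these shares were 0.624% to 0.637% and 0.651% to 0.661%, so the OE libraries were the higher in both.

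In LoVo, XBP1, most genes of the stress sensors and selected chaperone and disposal genes rose in the KD-labelled libraries, while CALR, CRELD2 and WFS1 fell. In all 16 of 37 genes were called, 13 higher and 3 lower (edgeR adjusted p under 0.05). The background was broad here, with 26.3% of all genes called, 12.6% higher and 13.7% lower, so the members' rises were more frequent than the background and their falls were not. The median was 0.13 against 0.00 over all genes, with a range of -0.54 to 0.63. The groups did not overlap for 22 of the 37, again without a count over all genes. Without control library 1 or 3 the calls over all genes were 2809 and 2769 in place of 4278, and without control 3 the members called higher were 9. Summed markers were also lower in the KD-labelled libraries for fibroblasts and endothelium (0.511 to 0.681 FPKM, against 2.18 to 2.4 in the controls), hepatocytes (0.604 to 0.77 against 1.45 to 1.92) and leukocytes (1.57 to 1.96 against 2.34 to 2.84). In each of these lists 1 gene was called. These were COL3A1 of 4 tested (-2.57), HPX as the only 1 tested (-1.32) and CORO1A of 2 tested (-1.20). PDGFRB was at 0.16 and not called. The 12 epithelial markers moved both ways, with 4 called higher (CDH17, LGALS4, CEACAM5 and EPCAM, by 0.42 to 0.78), 6 called lower and a median of -0.03. The part of any of these markers in the changes was not tested.

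Of the sensors and their factors 5 of 6 rose and none fell. XBP1 had 109.6, 110.5 and 114.1 CPM in the controls and 159.4, 149.6 and 154.4 in the KD-labelled libraries. The groups were well apart, a 1.38-fold rise (log2 0.46, SE 0.060, edgeR adjusted p = 4.81e-06), and the call held in all 16 alternative fits. The plasma cell markers summed to 19.5 to 22.1 FPKM in the controls and 17.4 to 19.3 in the KD-labelled libraries. SDC1, the only 1 of them tested, was not called (-0.16, edgeR adjusted p = 0.0972) and its groups overlapped. The part of plasma cells in the XBP1 level was not tested. CREB3L1 had 5.5, 4.54 and 3.2 CPM against 8.59, 5.9 and 6.22 (0.63, SE 0.20, adjusted p = 0.0197 by edgeR). Its groups did not overlap but were wide, and the call was lost without control 3 (0.45, adjusted p = 0.135 by edgeR) or KD 1 (0.45, 0.111). CREB3L2 (0.29), ERN1 (0.28) and ATF6 (0.23) also rose. ATF6 lost its call without control 2, control 3, KD 2 or KD 3 (edgeR adjusted p from 0.057 to 0.144). EIF2AK3 had a fold change of 0.34 and missed the threshold (adjusted p = 0.0528 by edgeR).

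The chaperones split. DNAJB9, a co-chaperone of HSPA5 that also holds IRE1 in check, had 10.7, 12.4 and 11.6 CPM in the controls and 15.8, 14.8 and 18.8 in the KD-labelled libraries (0.50, SE 0.12, edgeR adjusted p = 0.0034). Its groups did not overlap. PNPLA8 and THAP5 overlap it on the opposite strand. DNAJC3 (0.33) and HSP90B1 (GRP94, 0.20) rose as well, although HSP90B1 lost its call without control 3 (adjusted p = 0.0805 by edgeR). CRELD2, a folding factor induced by ER stress, fell from 40.6, 41.7 and 41.2 CPM to 30.2, 28.5 and 32.9 (-0.44, SE 0.081, edgeR adjusted p = 0.000341). HSPA5, at 522.6, 504.2 and 503.7 CPM, lay above its 3 controls but was not called (0.14, 95% interval 0.03 to 0.25, adjusted p = 0.0568 by edgeR). It was called in 4 of 16 alternative fits, with an adjusted p of 0.048 by limma voom and, by edgeR, of 0.02 with all 12 libraries in 1 fit, 0.00742 with the replicate block and 0.0378 without KD 2.

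The 2 lectin chaperones, which bind the same sugar on new glycoproteins, moved in opposite directions. CANX rose from 768.6, 807.6 and 791.6 CPM to 961.9, 1048.1 and 1006.4 (0.34, SE 0.053, edgeR adjusted p = 4.57e-05). CALR fell from 560.6, 563.5 and 566.2 to 492.1, 471.0 and 482.3 (-0.23, SE 0.052, adjusted p = 0.00201 by edgeR). Neither pair of groups overlapped, and both calls held in all 16 alternative fits. The members held 0.551% to 0.558% of all counts in the LoVo controls and 0.582% to 0.588% in the KD-labelled libraries, and without CANX 0.469% to 0.476% and 0.481% to 0.485%.

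In ER-associated degradation, HERPUD1, a stress-induced scaffold of the ligase complex, rose from 62.7, 59.8 and 60.9 CPM to 78.8, 74.1 and 84.9 (0.37, SE 0.070, edgeR adjusted p = 0.000417). SEL1L, the partner of the ligase SYVN1, rose from 49.2, 48.3 and 53.6 to 65.5, 65.6 and 64.4 (0.37, SE 0.071, adjusted p = 0.000517 by edgeR). SYVN1 itself had a value of -0.20 and was not called (edgeR adjusted p = 0.0615). It was called in 2 of 16 alternative fits, both by edgeR, with the replicate block (-0.20, adjusted p = 0.0177) and without KD 1 (-0.26, 0.0195). It overlaps FAU and MRPL49. EDEM1, which fell in HCT116, was at 0.15 here and not called (edgeR adjusted p = 0.165), and DERL2 was at 0.20 (0.119). Of the translocation and export genes SSR1 rose (0.25, edgeR adjusted p = 0.0037), from 135.9, 140.5 and 131.0 CPM to 156.8, 170.7 and 160.3. SEC61B also rose (0.28, edgeR adjusted p = 0.0373), but its groups overlapped (24.8, 31.8 and 27 against 31.1, 36.8 and 33.7 CPM) and the call was lost without control 1, control 3, KD 2 or KD 3 (adjusted p from 0.0926 to 0.206). By edgeR none of the 6 disulfide isomerases and oxidases was called (1 at an unadjusted p under 0.05, and 0 called by DESeq2 or voom), and their values ran from -0.09 for P4HB to 0.14 for PDIA3.

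WFS1 (chr4:6269849-6303265, plus strand), a membrane protein of ER calcium balance, had the largest fall among the members. It went from 28.4, 26.3 and 31.7 CPM to 23, 16.9 and 19.9 (-0.54, SE 0.11, edgeR adjusted p = 0.000624), without overlap. It was lower in LoVo than in HCT116 at rest as well, by -1.09, and these comparisons share the LoVo controls. The call with the KD label held in all 16 alternative fits, as did those of XBP1, CANX, HERPUD1, SEL1L, DNAJB9, CREB3L2, SSR1, CRELD2 and CALR.

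**Figure D3:**
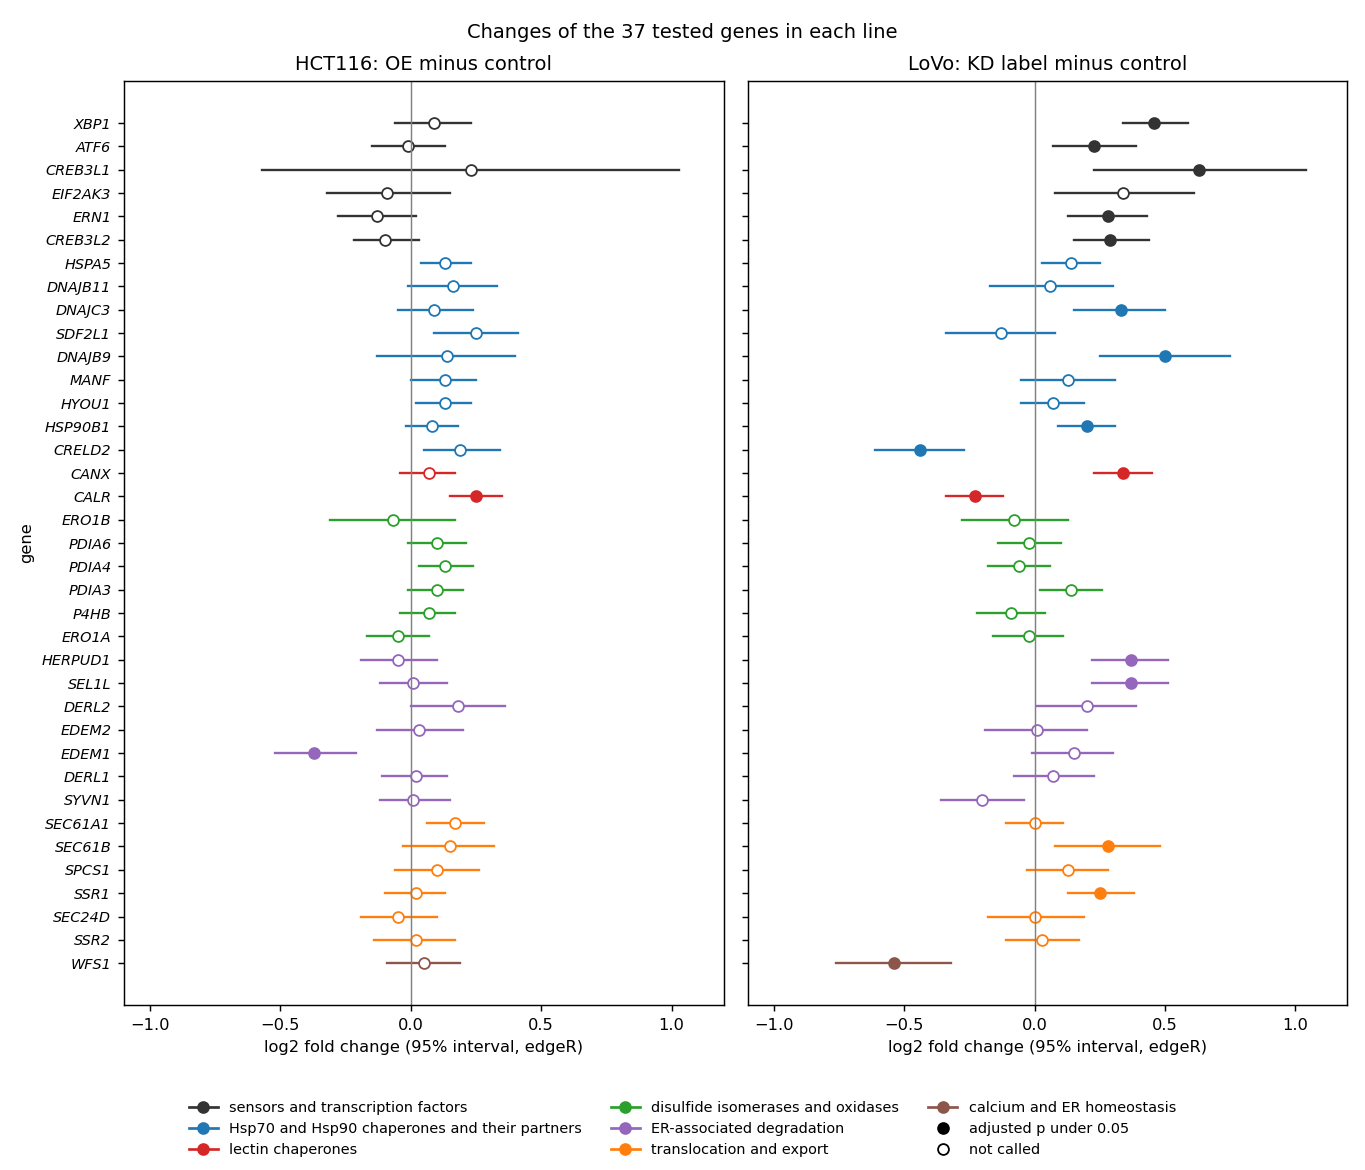
Log2 fold change with its 95% interval from edgeR for the 37 tested genes, by role, for OE minus control in HCT116 (left) and KD-labelled minus control in LoVo (right), with filled points for an adjusted p under 0.05. In HCT116 the points stay between -0.37 and 0.25 with CALR and EDEM1 filled, and in LoVo 16 points are filled, from WFS1 at -0.54 to CREB3L1 at 0.63.

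**Figure D4:**
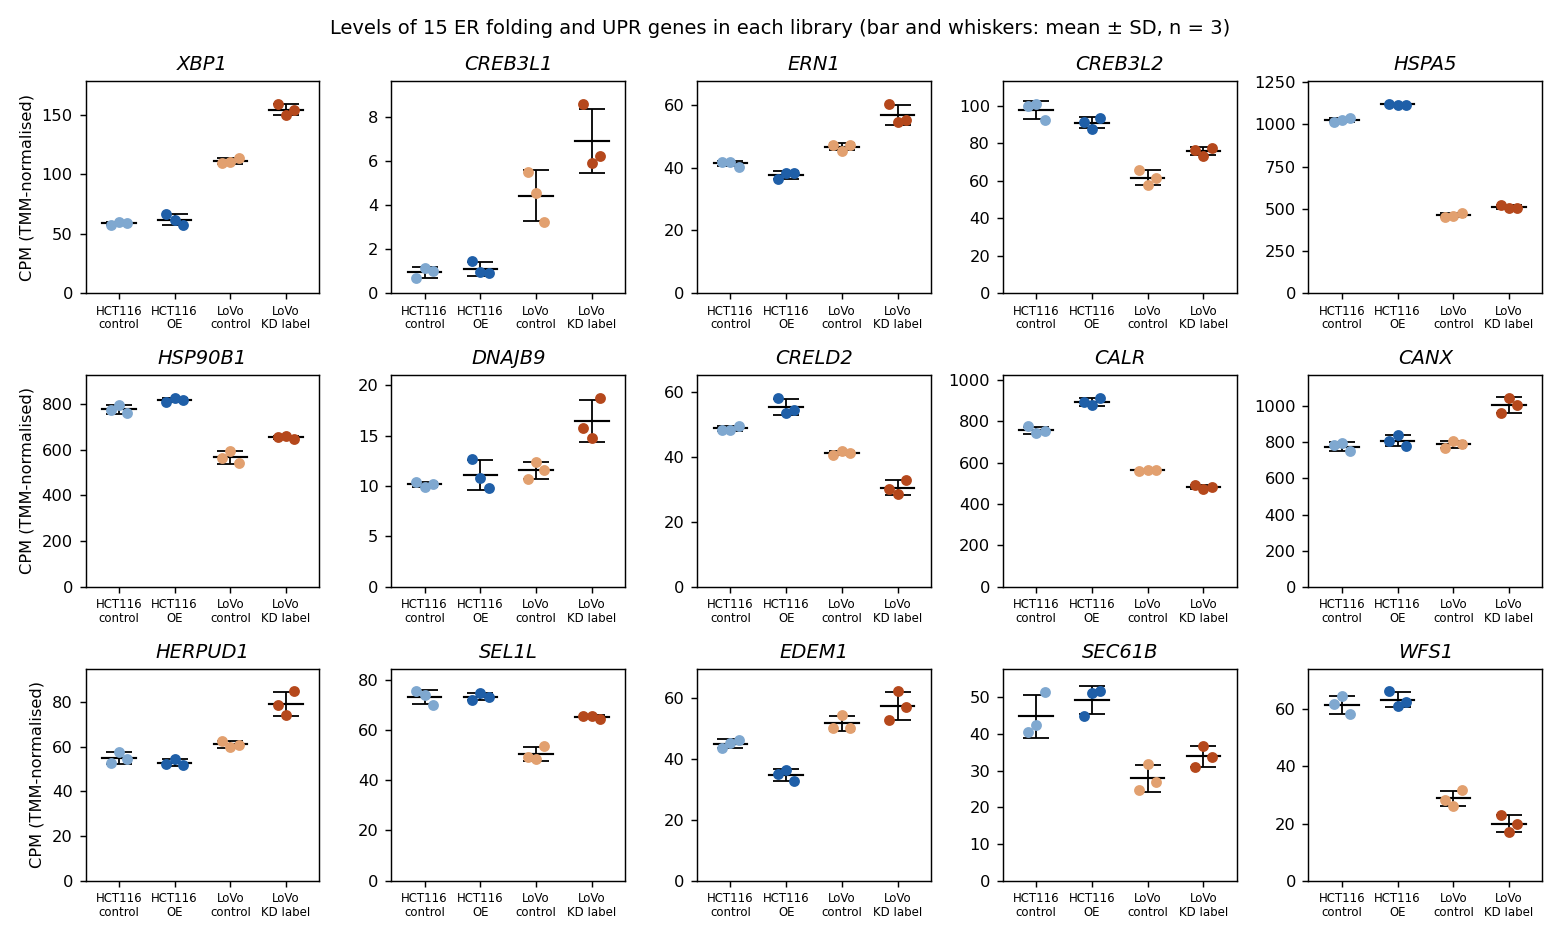
TMM-normalised CPM of 15 members in every library (points), with the mean ± SD of each group of 3 and axes from 0. XBP1 rises stepwise from HCT116 to the LoVo controls to the KD-labelled libraries, HSPA5 is at 450.5 to 522.6 CPM in LoVo against 1012.9 to 1123.0 in HCT116, and CALR and CANX move apart in LoVo.

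Promoters with and without an exact match to an element were set side by side. Of the 11 members whose window holds either ER stress response element, 4 rose and 2 fell in the KD-labelled libraries, with a median of 0.07. Of the 22 with a window and no exact match, 9 rose and 1 fell, with a median of 0.17. This second set is not free of near matches, as DNAJC3, SEL1L, SYVN1 and WFS1 hold the first form with 1 mismatch. In HCT116 the medians were 0.10 and 0.04, with CALR in the first set and EDEM1 in the second. Between the control lines they were -0.24 and -0.45. No test was made of these differences.

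The change with more SLERT, as labelled, was then compared between the lines, as OE minus control in HCT116 less control minus KD-labelled in LoVo. The direction rests on the KD label, which the SLERT locus did not bear out. Of 37 members 12 had a positive and 1 a negative difference (edgeR adjusted p under 0.05), against 6.94% and 7.61% of all genes and 14.6% in both directions. XBP1 had the smallest adjusted p (0.55, SE 0.087, adjusted p = 7.54e-05 by edgeR), with 66.3, 61.8 and 57.4 CPM in the OE libraries, which overlapped their controls. HSPA5 was among the 12 (0.27, SE 0.065, edgeR adjusted p = 0.00516), although neither line alone called it: its values were 0.13 with OE and 0.14 with the KD label. HSPA5, XBP1, CANX, HSP90B1, SEL1L and WFS1 kept this call in all 21 alternative fits. CALR had a difference of 0.01 (95% interval -0.12 to 0.15), since it rose with OE and fell with the KD label by like amounts. Without HCT116 control 1 the positive calls were 7 in place of 12.

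The rest of the pathway was followed with 115 other genes in 7 lists. By edgeR none of the 109 tested in HCT116 was called with OE (19 at an unadjusted p under 0.05, with 1 called by DESeq2 and 0 by voom), against 0.914% of all genes. In LoVo 35 of 107 (32.7%) were called with the KD label, 26 higher and 9 lower. Over all genes 26.3% were called there, 12.6% higher and 13.7% lower. Between the control lines 91 of 108 (84.3%) were called, 35 higher and 56 lower, against 79% of all genes. Taken over both directions, neither share was far from its background. By direction, rises outnumbered falls in LoVo (26 and 9), and lower calls outnumbered higher ones between the control lines (56 and 35). Over all genes the directions were near even in both comparisons, with 39% higher and 39.9% lower between the control lines. Of 18 other translocon, signal recognition and signal peptidase genes 6 rose in the KD-labelled libraries and none fell (median 0.15). SSR3 (0.39), the signal peptidase SEC11A (0.39) and SRP72 (0.32) had the smallest adjusted p (edgeR, 0.000148 to 0.000679). STT3B, a catalytic subunit of oligosaccharyltransferase, was the only 1 of 9 subunits called (0.31, edgeR adjusted p = 0.00032). In the coat and cargo receptor list 3 of 20 rose and 2 fell, with KDELR2, which returns escaped ER proteins, at 0.29 and SEC23B at 0.22 among the rises and SEC16A at -0.20 among the falls. SEC23B lost its call without control 1 or KD 3, and SEC16A without control 1, control 3, KD 2 or KD 3. Of 18 other degradation genes 3 rose and 1 fell. SELENOS (0.44) and EDEM3 (0.35) rose, and the extraction ATPase VCP fell (-0.26). The shares called were 22.2% of these degradation genes, 25% of the coat and cargo receptor list and 11.1% of the oligosaccharyltransferase subunits. None of these shares was above the 26.3% of all genes. The remaining lists were above it, at 33.3% of the translocon list, 27.8% of other ER folding enzymes, 50% of other stress-response regulators and 66.7% of PERK outputs.

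PERK outputs, a list named for the branch from PERK to ATF4, had the largest share of calls among the 7 other lists in LoVo (66.7%, against 26.3% of all genes). The part of PERK in the levels of these genes was not tested. Of 12 tested, 7 rose and 1 fell with the KD label, with a median of 0.31. Over all genes 12.6% rose and 13.7% fell. DDIT4 (0.64), ATF3 (0.52) and the phosphatase subunit PPP1R15A (0.43) had the smallest adjusted p (edgeR, 4.66e-08 to 2.70e-05). ATF4 itself rose (0.30) and so did DDIT3, the gene of CHOP (0.45), while the cell-death gene BBC3, named after its value was seen, fell (-0.46). In HCT116 with OE none of the 13 was called by edgeR (3 at an unadjusted p under 0.05, with 1 called by DESeq2 and 0 by voom), with ATF4 at -0.04 and DDIT3 at 0.06 (edgeR adjusted p = 0.796 and 0.941). Between the control lines 9 of 12 were higher and 2 lower in LoVo (91.7% called). Over all genes 39% were higher and 39.9% lower (79% called). The median of the PERK outputs was 1.21, against -0.39 for the 37 members. TRIB3 (2.26), CHAC1 (2.83) and DDIT4 (1.36) led by p, and ATF4 had 392.6 ± 12.1 CPM in the HCT116 controls and 595.7 ± 15.9 in the LoVo controls (SD, n = 3).

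**Figure D5:**
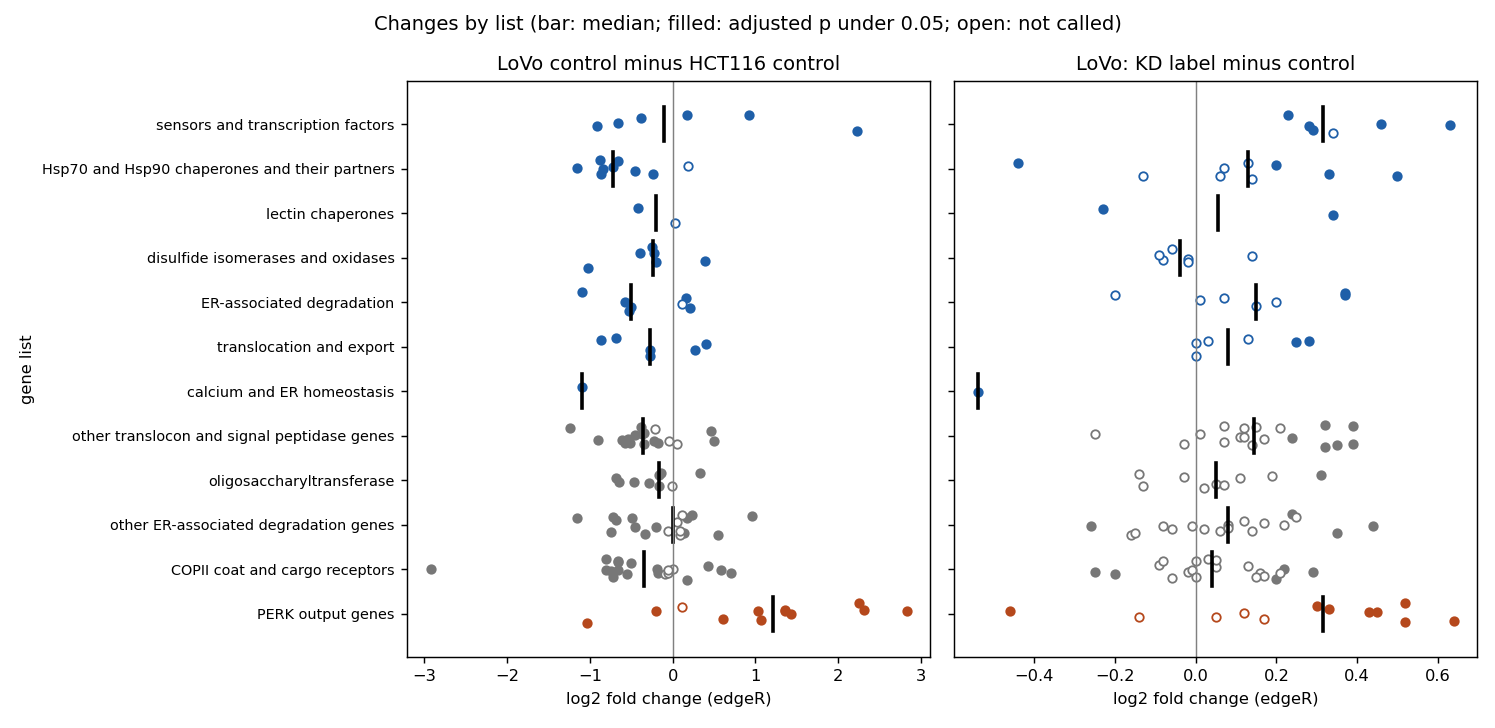
Log2 fold changes of each tested gene by list, for LoVo control minus HCT116 control (left) and KD-labelled minus control in LoVo (right), with black bars for medians, filled points for an adjusted p under 0.05 and vertical jitter only for legibility; members are blue, PERK outputs orange and 4 other pathway lists grey. Most member lists lie left of 0 in the left panel, where the PERK outputs have a median of 1.21, and in the right panel the sensors and the PERK outputs lie to the right of 0 apart from BBC3 and 1 uncalled PERK output.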

How the data were processed

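RNA libraries from 12 samples were analysed, 3 in each of 4 groups. The deposited counts are whole numbers of reads per gene and carry no normalisation. The deposited FPKM table holds values the authors scaled by gene length and total count, and each FPKM equalled the count divided by a whole-number length and the column total. The submitters' processing notes name HISAT2 2.1.0 and the build GRCh38. Not given in the sources used here are the counter, the annotation release and the use of strand, and genes that overlap on opposite strands may therefore share reads. The columns headed as vector were taken as the HCT116 controls, the least certain of the assignments. The chi-square per degree of freedom between libraries of a group was 2.4 to 6.63, so no library was a copy of another.

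Each comparison was fitted over all genes with edgeR 4.0.16 in R 4.3.3 (TMM factors, filterByExpr, quasi-likelihood F test), with Benjamini-Hochberg adjustment over all genes and calls at an adjusted p under 0.05. HCT116 and LoVo were fitted apart, over 15980 and 16253 genes, their controls together over 17143, and the difference between lines over 18199. The fit was tested on simulated data. Levels are CPM with TMM factors over all libraries. Alternatives were DESeq2 1.42.0, limma 3.58.1 on log2(FPKM + 1) and log2(FPKM + 0.1), limma voom, other factors and filters, the replicate number as a block, 1 fit of all 12 libraries, and each library left out in turn.

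The members, the lists and the naming rule were chosen with earlier results of these data known. Every member could be named. Values per library were planned for members called in HCT116 or LoVo with a change of at least 0.5 on the log2 scale. They were also planned for those called in HCT116 or in the difference between lines, and for HSPA5 and XBP1. HSP90B1, DNAJC3, PDIA3 and DERL2 were called in that difference, but their values per library are not printed in the text. Of other lists the 3 called genes with the smallest p could be named, with AGR2, ATF4, DDIT3 and ERN2. Gene positions are from GENCODE v29, which is on GRCh38, and promoter windows from RefSeq on GRCh38.p14. Of the 33 windows, 30 had bases after the start in a GENCODE transcript of the gene, in its direction.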

Additional observations from a re-analysis of the deposited data

Results flagged for a closer look

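For 13 of the 37 members the change with more SLERT, as labelled, differed between the lines by a test of the difference itself (edgeR, all 12 libraries, adjusted over all genes). A positive value means that OE in HCT116 moved the gene up relative to the LoVo comparison taken as control minus KD-labelled. On the log2 scale the difference was 0.55 for XBP1, 0.41 for CANX, 0.37 for SEL1L, 0.28 for HSP90B1 and 0.27 for HSPA5. These 5, and WFS1 at -0.49, kept their call in all 21 alternative fits.

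DNAJB9 had a difference of 0.63 and DNAJC3 of 0.42. HERPUD1 was at 0.32, SSR1 at 0.27 and PDIA3 at 0.23. SEC61B, at 0.42, and DERL2, at 0.37, lost their calls in the largest numbers of alternatives. DERL2 lost it in 12 of 21 fits, as did SEC61B in 10 and PDIA3 in 9. In LoVo alone DERL2, PDIA3 and HSPA5 were not called, and in HCT116 alone none of the 13 was. SNORA5C had 37 counts in both LoVo groups, so the sign given to the LoVo comparison rests on its label.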

How the results depend on the processing

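Depth limits CREB3L1 and DERL3, which had few counts. In HCT116 the members called higher and lower (1 and 1) were 0 and 0 in limma on log2(FPKM + 1) and on log2(FPKM + 0.1), and ranged from 0 to 1 each without 1 library. With the replicate block 7 members were called higher in HCT116, and 1322 genes in place of 146. Correlations of the deviations of same-numbered libraries were 0.0019 to 0.0611, against -0.0531 to 0.0308 for libraries with different numbers. All were small, and the numbers were not taken to pair the samples. In LoVo 7 members were called higher on both FPKM scales in place of 13, with 9 to 12 without 1 library. In the difference between lines 6 were called higher and 2 lower on both FPKM scales, in place of 12 and 1, and 7 to 12 higher without 1 library. Over all genes, the higher calls in HCT116 were 81 of 146, 59 of 141 with upper quartile factors, 161 of 254 by DESeq2 and 48 of 109 in the fit of all libraries, and in LoVo 2050 of 4278, or 966 of 2845 on log2(FPKM + 1).

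Values near 0 changed sign. CALR in the difference between lines was -0.00 with upper quartile factors and -0.04 on both FPKM scales, and CANX between the control lines ranged from -0.01 (without HCT116 control 3) to 0.05 without 1 library. In HCT116 DDIT3 ranged from -0.05 to 0.29 without 1 library, and ERN2 was 0.04 by voom and ranged from -0.33 to 0.21 without 1 library. AGR2 changed sign from a value further from 0, with almost no counts in HCT116 from which to estimate its change there. Its difference between lines (-0.43) was 0.52 by DESeq2, 1.22 and 1.27 on the FPKM scales, 0.96 by voom and ranged from -0.88 to 1.40 without 1 library. The cause was not tested. The ER stress response element was in 5 members on the gene's own strand and in 15 with 1 mismatch (45.5%, against 1.89% of all promoters), and its second form in 1 on the gene's own strand. Protein ends were not analysed here.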

Other observations

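Among 22 other ER folding enzymes, AGR2, a disulfide isomerase of goblet and other mucin-secreting cells, set the lines apart. It had 1 count over the 3 HCT116 controls and 0 over the OE libraries, against 642 over the LoVo controls and 1714 over the KD-labelled libraries. In LoVo it rose from 13.8 ± 2.36 to 36.7 ± 2.81 CPM (SD, n = 3; log2 fold change 1.40, SE 0.11, edgeR adjusted p = 1.52e-09), a larger rise than that of any of the 37 members. DNAJC1 (0.31) and HSPA13 (0.26) also rose in that list, although HSPA13 lost its call without KD 2, KD 3 or control 1 (adjusted p = 0.0561, 0.0582 and 0.141 by edgeR). ERN2, the IRE1 form of mucin-secreting epithelium, had 36, 33, 3 and 36 counts over the 4 groups in the order HCT116 control, OE, LoVo control and KD-labelled. It was too low to be tested in LoVo. In HCT116 it was at -0.04 (edgeR adjusted p = 0.982).

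Among the other regulators of the stress response 2 of 12 rose and 4 fell in the KD-labelled libraries. Over all genes 12.6% rose and 13.7% fell there. MAP3K5, the kinase ASK1 downstream of IRE1, rose (0.46, edgeR adjusted p = 4.35e-05), while BAX (-0.37) and the phosphatase PTPN1 (-0.34) fell. Between the control lines ATF6B was 1.02 higher in LoVo on the log2 scale, whereas ATF6 was 0.38 lower there (-0.38). LMAN1, the cargo receptor ERGIC-53, had 144.3 ± 6.06 CPM in the HCT116 controls and 18.9 ± 1.33 in the LoVo controls (SD, n = 3), a difference of -2.92 (edgeR adjusted p = 4.51e-26). DDIT3 had 2.96 ± 0.758 and 14.6 ± 0.905 CPM in the same groups (2.31, edgeR adjusted p = 5.96e-14).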
